A study of Mus musculus with 15 samples.

Results

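The ABCA transporters and ABCG1 are membrane pumps for lipids, and the 7 genes described here are Abca1, Abcg1, Abca7, Abca2, Abca3, Abca5 and Abca4. They are 7 of the 46078 rows of a gene count table from the mouse melanoma line B16-F10, and were found by matching Ensembl gene IDs to symbols in the GENCODE M21 annotation. They were chosen by measured values, namely RNA levels of the Abca family that tended higher in GSK126-treated than in DMSO-treated cells, so the values of that comparison are given as a description with no test. The 5 groups of 3 libraries each were cells treated with 2 µM GSK126, with 2 µM DZNep or with DMSO, the vehicle, and, in a parallel arm, cells given an siRNA against Ezh2 (siEzh2) or a scrambled control (scr). GSK126 inhibits the methyltransferase activity of EZH2, the enzyme that marks silent chromatin within Polycomb complexes, and DZNep inhibits S-adenosylhomocysteine hydrolase and so acts on methylation more broadly. All 5 groups are the same cell line. The labels used here give no treatment time or siRNA sequence and do not say whether libraries came from separate cultures, so p-values cover the spread between libraries alone, which may be technical. All 7 genes passed the filter on low counts, and 15152 genes were tested.

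ABC transporters use ATP to move substrates across membranes. ABCA1 loads cholesterol and phospholipid from the cell onto lipid-poor apolipoprotein A-I, ABCG1 passes sterols on to lipoprotein particles, and ABCA7 exports phospholipid and takes part in phagocytosis. ABCA2 and ABCA5 sit in late endosomes and lysosomes, ABCA3 fills the lamellar bodies of lung alveolar type 2 cells with surfactant phospholipid, and ABCA4 clears retinoid-lipid adducts from photoreceptor discs. Transcription of Abca1 and Abcg1 is known to be driven by the liver X receptors (LXR), which sense oxysterols and bind DNA as partners of retinoid X receptors. In pigment cells melanin is made in lysosome-related organelles, which belong to the same endolysosomal system.

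The sequence upstream of each start site was read for the members whose levels differed most. RefSeq promoter windows, on build GRCm38.p6, were matched for 6 of the 7 genes (Abca1, Abca2, Abca3, Abca4, Abca5 and Abca7). The 250 bases before the start of the transcript are shown 5′ to 3′ on the strand of the gene for Abca1, at chr4:53159896-53160145 on the minus strand, Abca5, at chr11:110337717-110337966 on the minus strand, Abca2, at chr2:25428349-25428598 on the plus strand, and Abca4, at chr3:122044210-122044459 on the plus strand. Abca1 and Abca5 are shown as genes that stood higher with GSK126, and Abca2 and Abca4 as the genes with the lowest and the highest fold change under DZNep. Capitals mark a match to the core of an LXR element of the direct-repeat kind (GGTNA and GGTCA with 5 bases of any kind between them), to the E-box CACGTG, or to TATAAA, each searched on both strands.
Abca1: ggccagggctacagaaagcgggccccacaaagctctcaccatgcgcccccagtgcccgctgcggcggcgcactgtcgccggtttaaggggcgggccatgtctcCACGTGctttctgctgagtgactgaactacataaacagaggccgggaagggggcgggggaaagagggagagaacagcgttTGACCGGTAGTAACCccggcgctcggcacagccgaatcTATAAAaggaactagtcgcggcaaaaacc
Abca5: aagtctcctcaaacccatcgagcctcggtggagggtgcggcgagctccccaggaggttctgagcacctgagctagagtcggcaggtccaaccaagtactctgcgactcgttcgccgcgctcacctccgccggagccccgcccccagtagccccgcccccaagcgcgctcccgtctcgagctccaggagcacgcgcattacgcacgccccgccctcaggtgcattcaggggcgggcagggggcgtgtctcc
Abca2: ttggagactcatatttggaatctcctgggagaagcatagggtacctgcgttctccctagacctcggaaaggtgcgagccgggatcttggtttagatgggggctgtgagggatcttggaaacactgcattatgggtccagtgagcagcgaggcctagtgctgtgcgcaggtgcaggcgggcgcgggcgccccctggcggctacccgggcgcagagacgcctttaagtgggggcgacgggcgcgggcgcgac
Abca4: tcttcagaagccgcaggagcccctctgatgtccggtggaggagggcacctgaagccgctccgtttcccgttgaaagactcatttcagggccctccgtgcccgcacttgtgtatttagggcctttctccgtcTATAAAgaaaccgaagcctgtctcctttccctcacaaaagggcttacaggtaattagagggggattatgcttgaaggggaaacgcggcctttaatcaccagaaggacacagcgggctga
The Abca1 window held a match of each kind. Its LXR-type match lay on the opposite strand, reads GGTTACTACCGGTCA there, and was found in 58 of 32851 promoter windows of the same length (0.177%). None of the other 5 windows held that motif, which says only that these letters are not in those windows. The E-box was found in 6.02% of all windows and, among the members, in Abca1. TATAAA was found in 12.4% of all windows and, among the members, in Abca1 and Abca4. The GC box GGGCGG, which is not in capitals and was found in 32.7% of all windows, occurred 4 times in the Abca5 window, 2 times in that of Abca1 and 1 time each in those of Abca3 and Abca7. All 6 windows were richer in G and C than the median window. The lowest was Abca4 at 54.4% and the highest Abca5 at 69.2%, and the median of all windows was 52.4%.

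The libraries held 33299524 to 64545747 counts, so 1 count was worth 0.0154 to 0.0306 CPM (counts scaled to a common library size with TMM factors). In siEzh2 cells Ezh2 averaged 39.6 ± 1.87 CPM, against 219 ± 6.59 CPM in scr cells (SD, n = 3 each), a 5.53-fold lower level (edgeR quasi-likelihood test, adjusted p = 1.22e-17). Ezh2 averaged 214 ± 6.81 CPM with GSK126 and 155 ± 5.06 CPM with DZNep, against 207 ± 2.66 CPM with DMSO. All 8 melanocyte markers looked at, among them Mitf, Pmel, Tyr and Dct, were above 1 CPM on average in every group. They summed to 21500 to 21900 CPM with GSK126, 22200 to 22600 CPM with DZNep and 25400 to 25700 CPM with DMSO, and to 24200 to 25700 CPM in siEzh2 and 19000 to 20100 CPM in scr cells. Their part in the results below was not tested. Since these are bulk samples, fewer cells of a type and less RNA per cell cannot be told apart. The first principal component, with 58.8% of the variance, separated the 3 DZNep libraries from all others. The library numbers in the labels put GSK126 replicate 1 beside the siRNA arm, and without it the median log2 difference of the 7 members between GSK126 and DMSO was 0.47, against 0.46 with it. Mitochondrial transcripts held 8.51 to 10.2% of counts with GSK126, 5.98 to 8.17% with DZNep and 8.05 to 8.96% with DMSO, and 7.13 to 8.71% in siEzh2 and 6.79 to 10.2% in scr cells.

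Abca2 was the most abundant of the transporters per kilobase of exon, and Abca4 the least, in cells given only the vehicle. In DMSO cells the levels in RPKM (CPM per kilobase of exon) were 10.4 ± 0.536 for Abca2, 7.47 ± 0.320 for Abca3, 6.01 ± 0.200 for Abca7, 2.32 ± 0.293 for Abca5, 1.15 ± 0.168 for Abca1, 0.127 ± 0.0145 for Abcg1 and 0.0371 ± 0.00744 for Abca4 (SD, n = 3). No neighbours in that order overlapped between libraries, and the same order without overlap held in GSK126 and siEzh2 cells. In scr cells Abca3 (6.83 ± 0.191 RPKM) and Abca7 (6.57 ± 0.446 RPKM) overlapped. In DZNep cells Abca3 led at 8.16 ± 0.296 RPKM. There Abca7 (5.72 ± 0.428 RPKM) and Abca2 (5.15 ± 0.229 RPKM) overlapped, as did Abca4 (0.241 ± 0.0239 RPKM) and Abcg1 (0.231 ± 0.0362 RPKM). The place of Abca2 above Abca3 depends on the length used, since with the length of the longest transcript both were at 10.8 RPKM in DMSO cells.

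**Figure D1:**
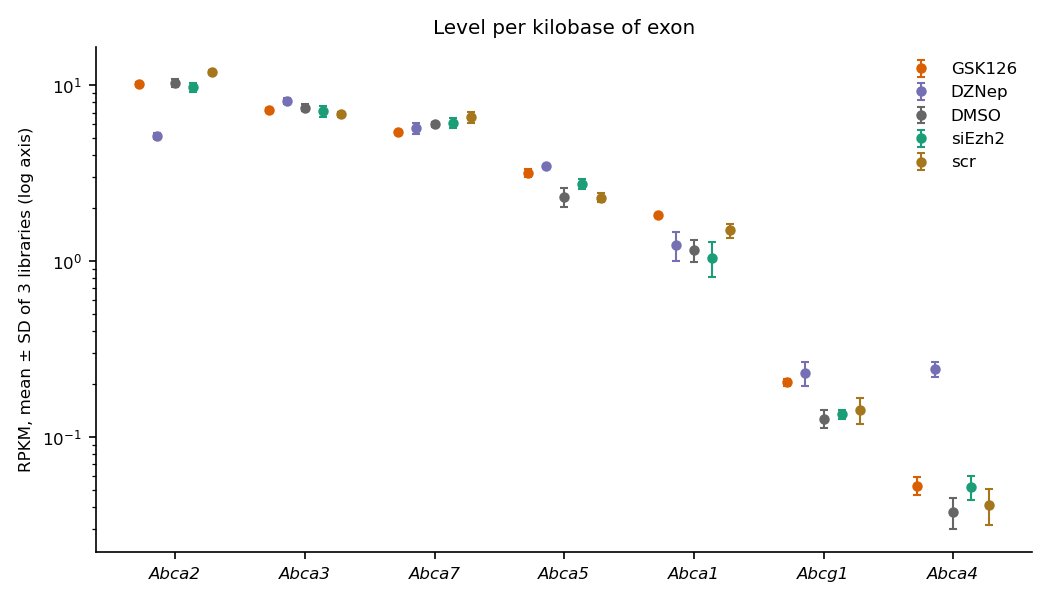
Mean ± SD over 3 libraries of the RPKM of each transporter (log axis) in the 5 groups. Abca2, Abca3 and Abca7 lie above 5 RPKM in every group, and Abcg1 and Abca4 stay below 0.3 RPKM.

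The set was uneven under GSK126. Abca1, Abca4, Abca5 and Abcg1 stood above DMSO with no overlap between libraries, Abca7 stood below, and Abca2 and Abca3 overlapped, so a higher level held for 3 of the 6 Abca genes and for Abcg1. Over all tested genes, 15.6% had GSK126 libraries all above and 15.1% all below the DMSO libraries, 30.7% in all. Because this contrast chose the genes, nothing is read from their count. The median log2 difference of the 7 members was 0.46, and that of all tested genes -0.01. By the edgeR test, 12.7% of all tested genes were called between GSK126 and DMSO, 7.15% higher and 5.54% lower, at an adjusted p under 0.05. Against scr in place of DMSO, the log2 differences of GSK126 cells were 0.28 for Abca1, 0.54 for Abcg1, 0.47 for Abca5, 0.34 for Abca4 and 0.09 for Abca3, with -0.28 for Abca7 and -0.22 for Abca2, and their median was 0.28.

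DZNep and Ezh2 siRNA each changed a part of the set. Abcg1, Abca3, Abca5 and Abca4 rose and Abca2 fell with DZNep, that is 5 of 7 called where 62.3% of all tested genes were (31.2% higher and 31% lower). In siEzh2 cells Abca5 rose and Abca1 and Abca2 fell, 3 of 7 called where 26.1% of all tested genes were (13.2% higher and 12.9% lower). With DMSO in place of scr neither fall was called, and Abca2 was itself higher in scr than in DMSO cells. No result about the set as a whole is read from either count. The median log2 fold change of the 7 members was 0.13 with DZNep and -0.06 with siEzh2, and the medians of all tested genes were 0.00 and -0.01. The DZNep comparison shares its 3 DMSO libraries with the contrast that chose the genes. Against scr, which that choice did not use, DZNep gave the same 5 calls and a lower Abca7. In that fit 33.7% of all tested genes were higher and 32.8% lower. The scr cells are from the siRNA arm, so siRNA treatment and arm cannot be told apart from the DZNep effect there. The siEzh2 and scr libraries are not in that contrast, though the spread behind their p-values was estimated over all 15 libraries.

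**Figure D2:**
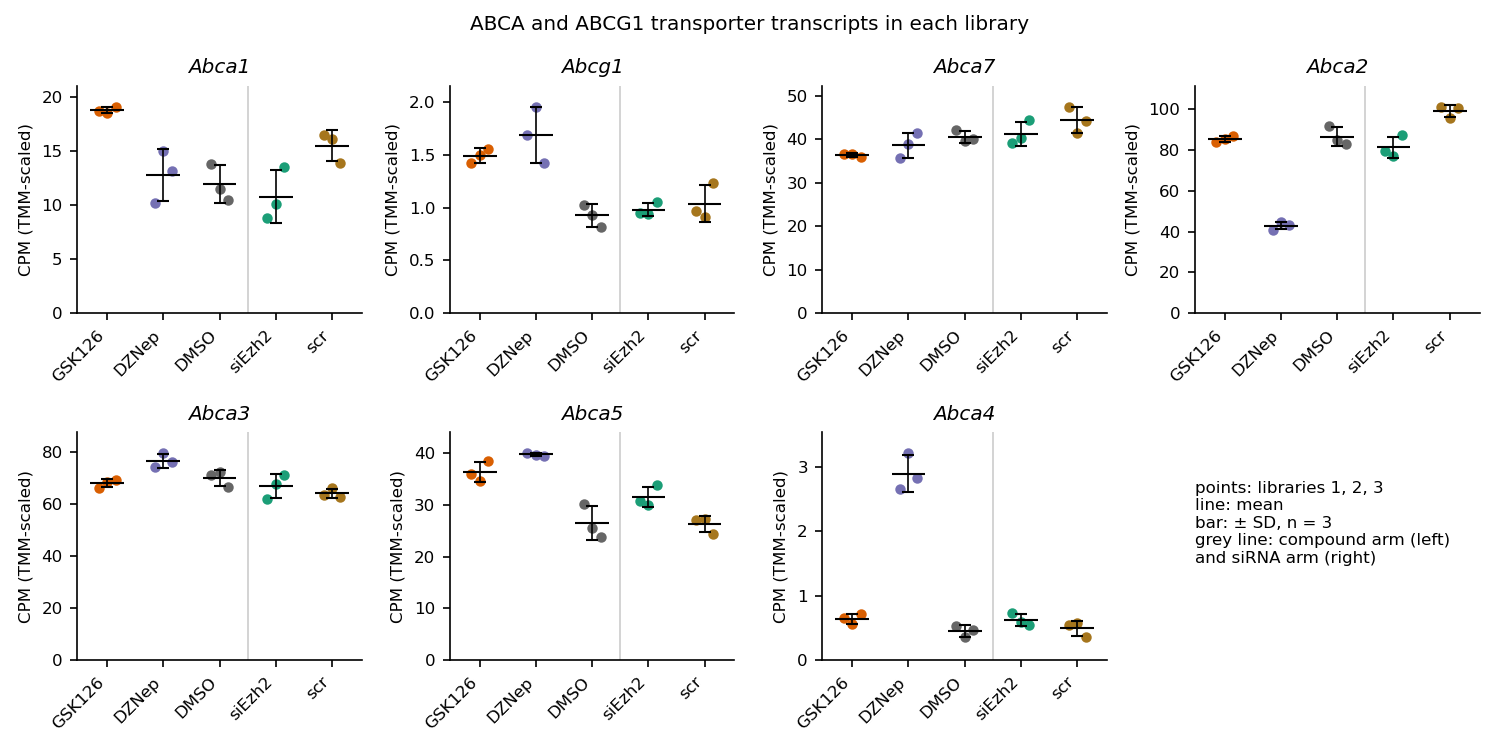
CPM of each transporter in every library, with the mean (line) and SD (bar, n = 3) of each group, the compound arm left and the siRNA arm right of the grey line. Abca4 and Abca2 set the DZNep libraries apart, Abca4 high and Abca2 low, and the GSK126 libraries are the highest for Abca1.

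**Figure D3:**
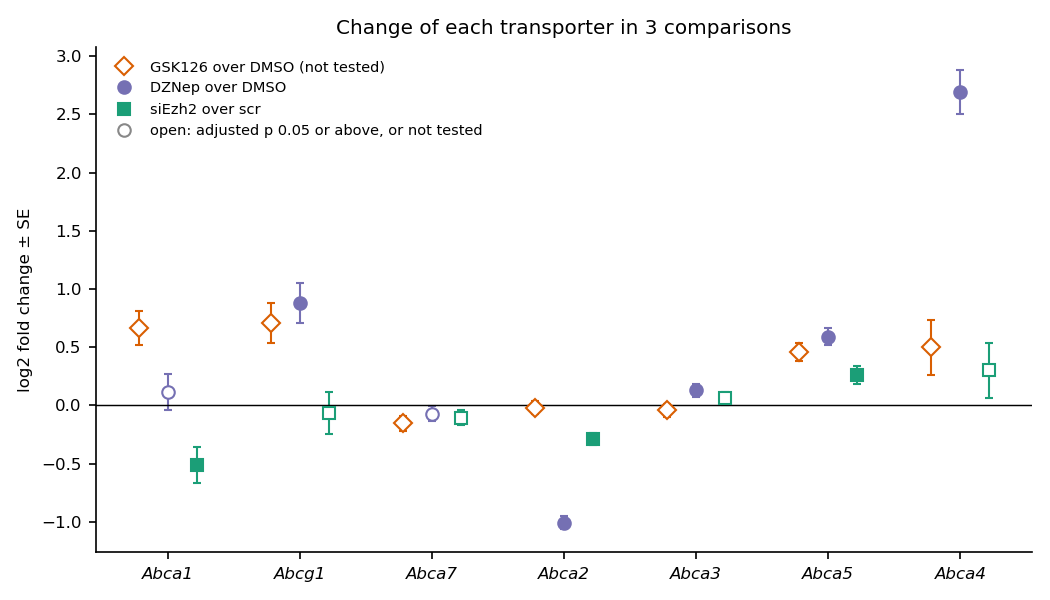
Log2 fold change ± SE of each transporter for GSK126 over DMSO, DZNep over DMSO and siEzh2 over scr, from 1 edgeR fit of 15 libraries. Filled symbols passed an adjusted p of 0.05, and GSK126 symbols are open because that contrast was not tested. The range runs from -1.01 for Abca2 to 2.69 for Abca4, both with DZNep.

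Among the exporters at the cell surface, Abca1 was highest with GSK126. Abca1 (ENSMUSG00000015243, chromosome 4, 53030787 to 53159895, minus strand, GRCm38) had 18.8, 18.6 and 19.1 CPM in GSK126 cells, 10.2, 15.02 and 13.2 CPM in DZNep cells, and 13.9, 11.5 and 10.5 CPM in DMSO cells. Every GSK126 library lay above every DMSO library, and the DZNep and DMSO libraries overlapped. In the siRNA arm it had 8.84, 10.1 and 13.5 CPM in siEzh2 cells, against 16.5, 16.2 and 13.9 CPM in scr cells, so the siEzh2 libraries lay below scr with the nearest pair close together. The GSK126 difference was 0.66 ± 0.15 on the log2 scale (SE), 1.58-fold, as a description. The DZNep fold change was 0.12 ± 0.15 on the log2 scale and not called (adjusted p = 0.529), with a 95% interval of -0.21 to 0.44. In siEzh2 cells Abca1 fell 1.43-fold (log2 -0.51 ± 0.15, adjusted p = 0.0212). That call did not hold without siEzh2 replicate 1 (adjusted p = 0.0832), siEzh2 replicate 2 (0.0779), scr replicate 1 (0.0846) or scr replicate 2 (0.0647), and against DMSO the log2 fold change was -0.13 (adjusted p = 0.642).

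Abcg1 was a low transcript that stood higher with both compounds, while its siEzh2 and scr libraries overlapped. Abcg1 (ENSMUSG00000024030, chromosome 17, 31057675 to 31117988, plus strand) had 1.42, 1.497 and 1.56 CPM in GSK126 cells, 1.68, 1.95 and 1.43 CPM in DZNep cells, and 1.03, 0.932 and 0.816 CPM in DMSO cells. Both compound groups lay above DMSO in every library, on 53 to 82 counts a library in the compound groups and 40 to 53 in DMSO. In the siRNA arm it had 0.948, 0.938 and 1.05 CPM in siEzh2 cells and 0.964, 0.911 and 1.24 CPM in scr cells, which overlapped. The GSK126 difference was 0.70 ± 0.17 on the log2 scale, 1.63-fold, as a description. With DZNep Abcg1 rose 1.84-fold (log2 0.88 ± 0.17, adjusted p = 0.000139), and against scr the log2 fold change was 0.71 (adjusted p = 0.000886). In siEzh2 cells the log2 fold change was -0.06 ± 0.18 (adjusted p = 0.858), with a 95% interval of -0.45 to 0.32.

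Abca7 varied little between groups. Abca7 (ENSMUSG00000035722, chromosome 10, 79996494 to 80015572, plus strand) had 36.7, 36.7 and 35.9 CPM in GSK126 cells, 35.6, 38.9 and 41.3 CPM in DZNep cells, and 42.1, 39.5 and 40.1 CPM in DMSO cells. The GSK126 libraries all lay below DMSO, by -0.16 ± 0.06 on the log2 scale, and the DZNep libraries overlapped DMSO. In siEzh2 cells it had 39.1, 40.2 and 44.4 CPM, against 47.5, 41.5 and 44.1 CPM in scr cells, which overlapped. The log2 fold change was -0.07 ± 0.06 with DZNep (adjusted p = 0.361, 95% interval -0.20 to 0.06) and -0.10 ± 0.06 with siEzh2 (adjusted p = 0.254, 95% interval -0.24 to 0.03). Against scr, Abca7 was lower with DZNep (log2 -0.20, adjusted p = 0.0102).

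ABCA1 and ABCG1 are best known from macrophages, so markers of that cell type are given beside them. Adgre1, Itgam, Tyrobp, Fcgr1 and Marco had 0 counts in all 15 libraries, and 1 of the 10 macrophage markers, Cd68, reached 1 CPM on average. The list summed to 2.63 to 3.18 CPM with GSK126, 3.6 to 4.74 CPM with DZNep and 2.61 to 3.16 CPM with DMSO, and to 3.06 to 3.47 CPM in siEzh2 and 2.93 to 3.68 CPM in scr cells. The 5 endothelial markers summed to at most 0.325 CPM in any library.

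Among the endolysosomal members, Abca2 fell with DZNep in every library. Abca2 (ENSMUSG00000026944, chromosome 2, 25428703 to 25448540, plus strand), best known from neural tissue, had 83.8, 85.6 and 87.0 CPM in GSK126 cells, 41.0, 44.9 and 43.1 CPM in DZNep cells, and 91.6, 85.1 and 83.1 CPM in DMSO cells. GSK126 and DMSO overlapped, with a log2 difference of -0.02 ± 0.05, and DZNep lay far below both. In siEzh2 cells it had 79.6, 77.1 and 87.2 CPM, against 101.3, 95.9 and 100.5 CPM in scr cells, with no overlap. Abca2 fell 2.01-fold with DZNep (log2 -1.01 ± 0.06, adjusted p = 6.33e-12) and 1.22-fold with siEzh2 (log2 -0.29 ± 0.05, adjusted p = 0.000525). The siEzh2 libraries did not differ by the test from DMSO (log2 -0.09, adjusted p = 0.294), and scr was itself higher than DMSO (log2 0.20 ± 0.05, adjusted p = 0.011).

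Abca5 rose with DZNep and with siEzh2. Abca5 (ENSMUSG00000018800, chromosome 11, 110269369 to 110337716, minus strand) had 35.9, 34.7 and 38.5 CPM in GSK126 cells, 40.0, 39.7 and 39.6 CPM in DZNep cells, and 30.2, 25.6 and 23.7 CPM in DMSO cells. In siEzh2 cells it had 30.8, 30.0 and 33.8 CPM, against 27.1, 27.3 and 24.4 CPM in scr cells. Each of these groups lay above its control in every library. The GSK126 difference was 0.46 ± 0.08 on the log2 scale, 1.38-fold, as a description. Abca5 rose 1.51-fold with DZNep (log2 0.59 ± 0.08, adjusted p = 1.13e-06) and 1.201-fold with siEzh2 (log2 0.26 ± 0.08, adjusted p = 0.0141). Over scr the siEzh2 call was lost without siEzh2 replicate 3 (adjusted p = 0.0671) or scr replicate 3 (adjusted p = 0.0598). Against DMSO the siEzh2 log2 fold change was 0.26 (adjusted p = 0.029). Those DMSO libraries belong to the contrast that chose the genes, so that p-value is not independent of the choice.

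Abca3 had the narrowest range over the 15 libraries, 1.29 times from lowest to highest. Abca3 (ENSMUSG00000024130, chromosome 17, 24351950 to 24410201, plus strand) had 66.2, 68.6 and 69.2 CPM in GSK126 cells, 74.0, 79.5 and 76.0 CPM in DZNep cells, and 71.2, 72.2 and 66.6 CPM in DMSO cells. In siEzh2 cells it had 61.7, 67.6 and 71.0 CPM, against 63.3, 66.1 and 62.8 CPM in scr cells. GSK126 overlapped DMSO (log2 -0.04 ± 0.05) and siEzh2 overlapped scr (log2 0.06, adjusted p = 0.455, 95% interval -0.05 to 0.18). With DZNep it rose 1.09-fold (log2 0.13 ± 0.05, adjusted p = 0.0458). That call is at the threshold: it was lost without DZNep replicate 2 (adjusted p = 0.178), DZNep replicate 3 (0.0777), DMSO replicate 1 (0.0569) or DMSO replicate 3 (0.16), and with DESeq2 (0.0523). Against scr the fold change was larger (log2 0.26, adjusted p = 0.000358). Exons of Abca3 share 9.75% of their bases with D330041H03Rik on the opposite strand, and no source used here gives the strand setting of the counting, so some of its reads are uncertain. Of the 6 alveolar type 2 markers, Sftpc, Sftpa1 and Sftpd had 0 counts in every library. The list summed to 1.01 to 1.23 CPM with GSK126, 0.905 to 1.21 CPM with DZNep and 0.893 to 0.98 CPM with DMSO, and to 0.777 to 1.01 CPM in siEzh2 and 0.953 to 1.14 CPM in scr cells. Most of it was Lamp3, which averaged 0.794 CPM with DZNep and 0.88 CPM with DMSO. Napsa averaged 0.206 CPM with DZNep and 0.0363 CPM with DMSO, on 57 counts over all 15 libraries. The part of these markers in the Abca3 values was not tested.

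Abca4, the retinoid-lipid transporter, had the highest fold change of the set. Abca4 (ENSMUSG00000028125, chromosome 3, 122044443 to 122180123, plus strand) had 2.66, 3.22 and 2.83 CPM in DZNep cells on 90, 135 and 125 counts, against 0.526, 0.349 and 0.462 CPM in DMSO cells on 22, 15 and 30 counts. It had 0.644, 0.553 and 0.705 CPM in GSK126 cells, on 24 to 29 counts. In siEzh2 cells it had 0.734, 0.583 and 0.548 CPM, against 0.540, 0.572 and 0.360 CPM in scr cells, which overlapped. Every DZNep library lay above all 12 others, and the GSK126 libraries lay just above DMSO (log2 0.50 ± 0.24, 1.41-fold, as a description). Abca4 rose 6.47-fold with DZNep (log2 2.69 ± 0.19, adjusted p = 1.86e-10), and against scr the log2 fold change was 2.54 (adjusted p = 2.83e-10). In siEzh2 cells the log2 fold change was 0.30 ± 0.24 (adjusted p = 0.403), with a 95% interval of -0.19 to 0.80, on 14 to 28 counts a library. The 5 photoreceptor markers summed to 0.62 to 0.86 CPM with DZNep and 1 to 1.39 CPM with DMSO. The 8 fibroblast markers summed to 26.7 to 29.5 CPM with GSK126, 62.7 to 73.1 CPM with DZNep and 23.9 to 25.7 CPM with DMSO, and to 32.5 to 35.1 CPM in siEzh2 and 24.9 to 26.8 CPM in scr cells. Of these sums Postn made up 45.8 CPM with DZNep and 6.66 CPM with DMSO on average. Col1a1 averaged 4 CPM with DZNep and 0.994 CPM with DMSO, and Col1a2 5.97 and 3.18 CPM. By the edgeR test all 3 were higher with DZNep (adjusted p = 1.62e-15, 1.09e-09 and 3.53e-07). Pdgfra (7.25 and 8.26 CPM) and Pdgfrb (5.43 and 5.62 CPM) were not called. Dcn and Lum averaged 0.0174 and 0.0824 CPM with DZNep, and Thy1 had 0 counts. The part of these markers in the results was not tested.

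The DZNep and siEzh2 effects were set against each other in 1 test, each relative to its own control. This test shares its DMSO libraries with the contrast that chose the genes, so its p-values for the members are not independent of that choice. It was not fitted with another control in place of DMSO. The difference was called for 5 of the 7 members where 51.1% of all tested genes were called (25.3% higher and 25.8% lower). The DZNep effect was higher for Abca4 by 2.39 ± 0.31 on the log2 scale (adjusted p = 2.5e-06), for Abcg1 by 0.94 ± 0.25 (0.00359), for Abca1 by 0.63 ± 0.21 (0.0236) and for Abca5 by 0.33 ± 0.11 (0.0157). It was lower for Abca2, by a log2 difference of -0.72 ± 0.08 (adjusted p = 2.64e-07). The difference was 0.07 for Abca3 (adjusted p = 0.489) and 0.03 for Abca7 (adjusted p = 0.775). The Abca1 call was lost without DZNep replicate 2 (adjusted p = 0.0739), DZNep replicate 3 (0.0592), DMSO replicate 3 (0.0709), siEzh2 replicate 1 (0.0524), siEzh2 replicate 2 (0.0556) or scr replicate 1 (0.0591).

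The controls themselves differed. Between scr and DMSO 25.9% of all tested genes were called, 12.2% higher and 13.6% lower in scr. Among the members Abca2 was called higher. Abca1 was not called (log2 0.39 ± 0.15, adjusted p = 0.0695), and the other 5 had adjusted p-values of 0.0937 to 0.963. Since many genes of the lists below also differed between the controls, siEzh2 was set against DMSO too, an alternative extended to the lists after the data were seen. In that fit 14.2% of all tested genes were called, 6.41% higher and 7.76% lower in siEzh2 cells. DMSO cells are from the compound arm, so siRNA treatment and arm cannot be told apart from the Ezh2 knockdown there.

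Among 15 further ABCA and ABCG genes, 8 were tested. For this list and those below, the counts are to be read beside the shares of all tested genes called. With GSK126 7.15% were higher and 5.54% lower, with DZNep 31.2% and 31%, and with siEzh2 over scr 13.2% and 12.9%. Abca12, which carries glucosylceramides into the lamellar granules of skin, averaged 119 CPM with GSK126 and 242 CPM with DZNep, against 56.0 CPM with DMSO, and 80.5 CPM in siEzh2 cells against 29.4 CPM in scr cells. It rose by 2.12 ± 0.09 on the log2 scale with DZNep (adjusted p = 5.36e-12) and by 1.46 ± 0.10 with siEzh2 (adjusted p = 7.28e-09). With GSK126 3 of the 8 passed the threshold higher and 0 lower, namely Abca12 (log2 1.08 ± 0.09), Abcg2, an exporter of drugs and urate (0.32 ± 0.06), and Abca8a (0.43 ± 0.11). That count is a description, since the tendency of the Abca family in this contrast chose the members. The counts of this list over DMSO with DZNep and with siEzh2 use the same DMSO libraries. Their p-values are therefore not independent of that choice. With DZNep 4 rose and 1 fell, with Abca13 at 1.14 ± 0.27 and Abcg4, a sterol exporter close to Abcg1, at -1.92 ± 0.20. With siEzh2 5 rose and 0 fell, including Abcg2 (0.43 ± 0.07) and Abca8a (0.43 ± 0.10). Abca8a has close paralogs beside it, so its reads could be split among them. The list medians were 0.34, 0.31 and 0.60 on the log2 scale with GSK126, DZNep and siEzh2, beside all-gene medians of -0.01, 0.00 and -0.01. Abca12 was lower in scr than in DMSO cells (log2 -0.93 ± 0.09, adjusted p = 1.85e-06), the 1 such gene of the 8. Against DMSO, siEzh2 gave 4 higher and 0 lower, with Abca12 at 0.52 ± 0.09 (adjusted p = 0.00115), Abcg2 at 0.36 ± 0.06 and Abca8a at 0.64 ± 0.11.

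Of 31 genes of the other ABC families, 24 were tested. With GSK126 2 rose and 0 fell, namely Abcc1, a glutathione-conjugate exporter (log2 0.31 ± 0.05), and Abcd2, a peroxisomal fatty-acid carrier (0.65 ± 0.18). With DZNep 13 rose and 6 fell, among them Abcf1, a translation factor, at 0.79 ± 0.07 and Abcc4, a cyclic nucleotide exporter, at -0.64 ± 0.05. With siEzh2 3 rose and 7 fell, among them Abcd3 at 0.31 ± 0.05, Abcb9, a lysosomal peptide carrier, at -1.49 ± 0.16 and Abcc4 at -0.39 ± 0.05. Abcb9 was higher and Abcd3 lower in scr than in DMSO cells (1.73 ± 0.16 and -0.33 ± 0.05). Against DMSO, siEzh2 gave 2 higher and 4 lower, with Abcc4 still lower (-0.30 ± 0.05), Abcb9 at 0.24 (adjusted p = 0.431) and Abcd3 at -0.02 (adjusted p = 0.843).

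Of the LXR group of 20 receptors, partners and SREBP-type regulators, 17 were tested. With GSK126 1 rose and 1 fell: Ppargc1a, a coactivator of mitochondrial genes, at 0.55 ± 0.07 (adjusted p = 5.04e-05) and Tfeb, a regulator of lysosomal genes, at -0.40 ± 0.11 (adjusted p = 0.0242). With DZNep 6 rose and 7 fell, among them Tfeb at 0.91 ± 0.11 and Srebf2 and Ncoa2 at -0.31 ± 0.05 and -0.37 ± 0.06. With siEzh2 2 rose and 0 fell, Ppargc1a at 0.79 ± 0.07 and Srebf2, which drives cholesterol synthesis genes, at 0.25 ± 0.05. Over DMSO, 3 were higher and 0 lower in siEzh2 cells, with Ppargc1a at 0.87 ± 0.07 and Srebf2 not called (-0.01, adjusted p = 0.916). Nr1h2, which encodes LXRβ, averaged 84.9 CPM with GSK126 and 72.4 CPM with DZNep, against 96.4 CPM with DMSO. It fell with DZNep (log2 -0.41, adjusted p = 0.000118) and was not called with GSK126 (log2 -0.18, adjusted p = 0.124). Nr1h3, which encodes LXRα, did not pass the filter on low counts. Both LXR genes were singled out after their values were seen.

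Of 20 known LXR target genes other than the members, 13 were tested. With GSK126 2 rose and 2 fell. Scd1, a fatty-acid desaturase (0.25 ± 0.06), and Lpcat3, which remodels phospholipids (0.34 ± 0.09), were higher. Apoe, an apolipoprotein that accepts cell cholesterol, averaged 531 CPM with GSK126 against 684 CPM with DMSO (-0.37 ± 0.09, adjusted p = 0.00831). With DZNep 8 rose and 4 fell, among them Scd1 at 0.48 ± 0.06, Lpcat3 at 0.74 ± 0.09 and Mylip, a ubiquitin ligase, at -0.37 ± 0.06. With siEzh2 4 rose and 3 fell, among them Pltp, a phospholipid transfer protein, at 0.39 ± 0.07, Smpdl3a at 0.35 ± 0.06 and Mertk, a receptor for engulfing dead cells, at -0.52 ± 0.08. Pltp and Smpdl3a were lower and Mertk higher in scr than in DMSO cells (-0.52 ± 0.07, -0.18 ± 0.06 and 0.43 ± 0.08). Against DMSO, siEzh2 gave 0 higher and 4 lower by edgeR, and Pltp (-0.13, adjusted p = 0.211), Smpdl3a (0.16, 0.0969) and Mertk (-0.09, 0.489) were not called. Apoe is counted again in the next list, and Srebf1 in the one before. The list medians were 0.07 with GSK126, 0.25 with DZNep and 0.12 with siEzh2.

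Of 33 genes of cholesterol uptake, traffic and efflux, 29 were tested. With GSK126 5 rose and 3 fell, and the rises with the smallest p were those of Cav1, the coat protein of caveolae, at 0.74 ± 0.07 (adjusted p = 1.95e-07), the lipoprotein receptor Vldlr (0.39 ± 0.08) and Osbpl1a (0.23 ± 0.05). With DZNep 10 rose and 14 fell. Vldlr averaged 11.2 CPM with DZNep against 73.4 CPM with DMSO (-2.71 ± 0.09, adjusted p = 3.98e-14), and Cav1 averaged 39.2 CPM against 15.5 CPM (1.34 ± 0.07). Gramd1a, a sterol carrier at membrane contacts, was at -0.63 ± 0.06. With siEzh2 6 rose and 6 fell, among them the sterol carriers Gramd1b, Stard5 and Osbpl2 at -0.36 ± 0.05, -0.51 ± 0.08 and -0.38 ± 0.06. All 3 were higher in scr than in DMSO cells (0.39 ± 0.05, 0.68 ± 0.07 and 0.44 ± 0.06). Against DMSO, siEzh2 gave 2 higher and 4 lower, and these 3 were not called, at 0.03, 0.17 and 0.06 (adjusted p = 0.733, 0.157 and 0.539).

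The 18 genes of sterol synthesis and sensing were all tested. Of all tested genes, 12.7% were called with GSK126, 62.3% with DZNep and 26.1% with siEzh2 over scr. With GSK126 0 rose and 1 fell, Insig2 (-0.25 ± 0.06). With DZNep 5 rose and 10 fell, among them Insig1, which holds SREBP proteins back (-0.68 ± 0.05), and Scap, the SREBP escort (0.48 ± 0.05). With siEzh2 13 rose and 1 fell, with Dhcr7 at 0.48 ± 0.06 and Sqle at 0.37 ± 0.05 higher and Cyp46a1 lower at -1.28 ± 0.35. Between the controls, 0 were higher and 14 lower in scr than in DMSO, with a list median of -0.59. Over DMSO, 0 were higher and 9 lower in siEzh2 cells, with a list median of -0.24, against 0.36 over scr. Sqle was then lower (-0.21 ± 0.05, adjusted p = 0.0111) and Dhcr7 not called (-0.18, adjusted p = 0.0602), so the direction of this list in siEzh2 cells turns with the control.

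Of 24 sphingolipid and phospholipid genes, 23 were tested. With GSK126 3 rose and 4 fell, among them Sgms2, a sphingomyelin synthase, at 1.03 ± 0.13, Lpcat2 at -0.28 ± 0.06 and Plscr1, a phospholipid scramblase, at -0.29 ± 0.06. With DZNep 6 rose and 8 fell, among them Smpd1, the lysosomal sphingomyelinase, at 1.30 ± 0.06, Asah1, the lysosomal ceramidase, at -0.84 ± 0.05 and Ugcg, which makes glucosylceramide, at -0.89 ± 0.05. With siEzh2 9 rose and 2 fell, among them Asah1 at 0.42 ± 0.05, Sptlc2 at 0.31 ± 0.05 and Lpcat1 at -0.45 ± 0.06. In scr 3 were higher and 9 lower than in DMSO cells, Asah1 and Sptlc2 among the lower ones (-0.36 ± 0.05 and -0.47 ± 0.05). Against DMSO, siEzh2 gave 3 higher and 5 lower, with Lpcat1 at -0.65 ± 0.06, Sptlc2 lower (-0.16 ± 0.05, adjusted p = 0.0336) and Asah1 not called (0.06, adjusted p = 0.369).

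**Figure D4:**
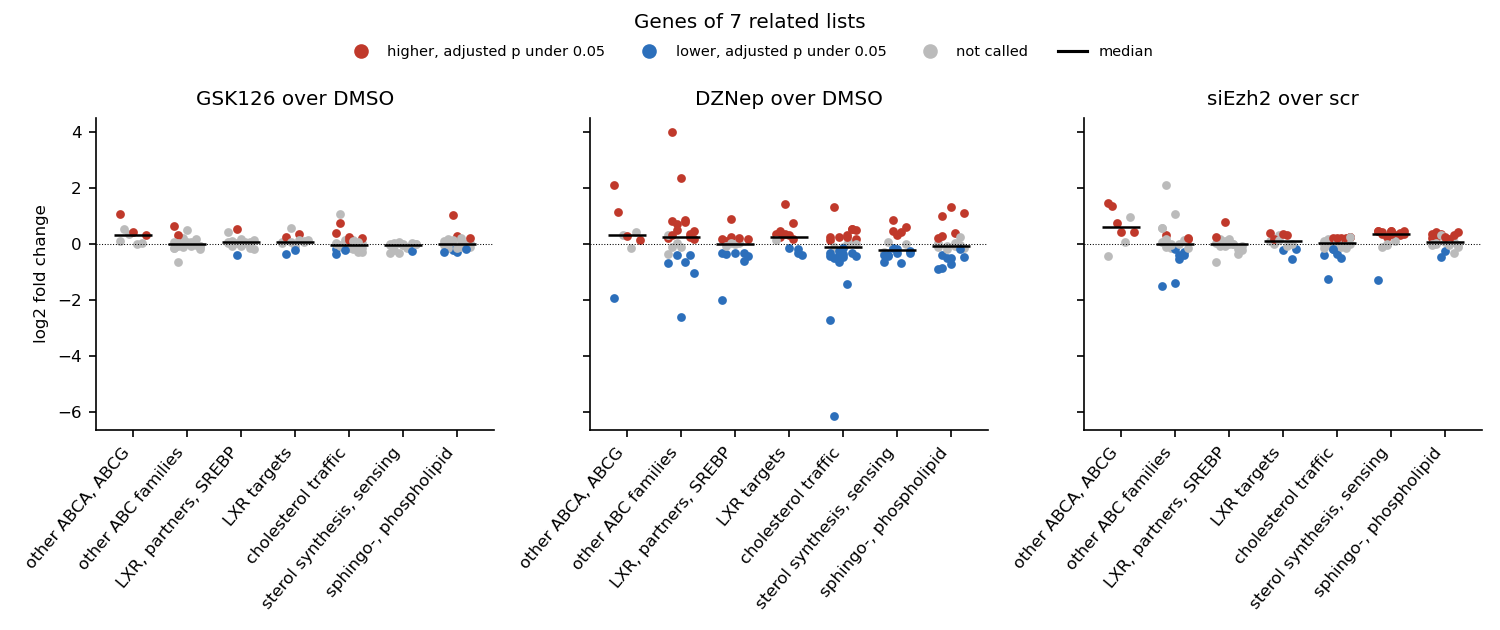
Log2 fold change of each tested gene of the 7 related lists in the 3 comparisons, with the list median as a line and the genes called at an adjusted p of 0.05 in colour. The other ABCA and ABCG genes have medians of 0.34, 0.31 and 0.60, and the point near -6 with DZNep is Soat2, which had 0 counts there, so that its fitted value depends on the prior count.

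Genes whose profile over the 15 libraries was most like that of a member were ranked by Pearson correlation of log2 CPM, as a description, since libraries of a group share their treatment. Abca2 came closest to Insr (r = 0.992), Kntc1 (0.992) and Wipf3 (0.991), and Abca4 to Slc4a11 (0.98), Hs1bp3 (0.978) and Mme (0.977). Abcg1 came closest to Slc37a2 (0.936), Ccdc138 (0.924) and Adamts1 (0.917), and Abca1 to Fn1 (0.9), Ankrd50 (0.874) and Znrf3 (0.857). Abca5 came closest to Erc1 (0.94), Lifr (0.931) and Tbc1d8b (0.93), Abca7 to Zfp639 (0.94), Gcn1l1 (0.91) and Tax1bp3 (0.893), and Abca3 to Gtf3c4 (0.88), Smad9 (0.876) and Sec22c (0.873). Without the DZNep libraries the r of Abca4 with its 3 genes was 0.723, 0.738 and 0.69, and that of Abca2 with its 3 was 0.881, 0.93 and 0.866. For Abca3 it was 0.824, 0.749 and 0.698, and for the other 4 members it stayed between 0.881 and 0.934. Among the members, Abca2 and Abca4 ran opposite (r = -0.95) and Abca5 and Abcg1 ran alike (r = 0.824). The DZNep libraries were the lowest for Abca2 and the highest for Abca4, and neither r was computed without them. The range over the 15 libraries was widest for Abca4, whose highest library was 9.21 times its lowest.

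Genes next to the members on the chromosome were read as well. Cnn2, which encodes a calponin and lies 0.432 kb from Abca7, rose with GSK126 (log2 0.55 ± 0.06, adjusted p = 1.29e-06), fell with DZNep (log2 -1.41 ± 0.06, adjusted p = 1.71e-13) and rose with siEzh2 (log2 0.34 ± 0.06, adjusted p = 0.000173), beside an Abca7 that was not called with DZNep or siEzh2. Umodl1, 47 kb from Abcg1, rose with GSK126 (log2 2.08 ± 0.56, adjusted p = 0.0173) and with DZNep (log2 4.72 ± 0.39, adjusted p = 2.73e-09). It averaged 0.0569 CPM with DMSO, where 1 count was worth 0.0154 to 0.0239 CPM, so both rises start from a few counts. On either side of Abca4, Arhgap29 (27.7 kb away) rose with DZNep (0.74 ± 0.06) and siEzh2 (0.76 ± 0.06), and Gclm, a subunit of the enzyme that starts glutathione synthesis (65.4 kb away), rose with DZNep (0.70 ± 0.06) and fell with siEzh2 (-0.39 ± 0.06). Arhgap29 was lower and Gclm higher in scr than in DMSO cells (-0.66 ± 0.06 and 0.30 ± 0.06), and against DMSO neither was called in siEzh2 cells (0.09 and -0.09, adjusted p = 0.317 and 0.37). Against DMSO, siEzh2 cells also gave no call for Cnn2 (0.07, adjusted p = 0.429), Abca6 (0.45, adjusted p = 0.115) and Nipsnap3b (0.15, adjusted p = 0.251). Of these, Cnn2 was lower in scr than in DMSO cells (-0.27 ± 0.06). Abca6 and Nipsnap3b were not called between the controls (adjusted p = 0.261 and 0.454). Abca6, 17.6 kb from Abca5, rose with siEzh2 (0.77 ± 0.19, adjusted p = 0.00564) and was not called with GSK126 (0.35 ± 0.19, adjusted p = 0.237) or DZNep (0.34 ± 0.19, adjusted p = 0.126). Beside Abca1, Nipsnap3b (8.73 kb away) fell with DZNep (-0.74 ± 0.09) and rose with siEzh2 (0.25 ± 0.09, adjusted p = 0.0393), and Slc44a1, a choline carrier 281 kb away, rose with GSK126 (0.31 ± 0.05) and fell with DZNep (-0.31 ± 0.05). Arhgap45, on the other side of Abca7, rose with DZNep (1.48 ± 0.35, adjusted p = 0.000954) from a low level of 0.150 CPM with DMSO. Rnps1 beside Abca3 also rose with DZNep (0.29 ± 0.09, adjusted p = 0.0148), and Map2k6 beside Abca5 rose with GSK126 (0.31 ± 0.08, adjusted p = 0.017). Paxx, 6.6 kb from Abca2, was not called with DZNep (log2 0.05, adjusted p = 0.725), and Fut7, Abca17 and Tff3 did not pass the filter on low counts.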

How the data were processed

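RNA from 15 libraries of B16-F10 cells in 5 groups of 3 was compared, grouped by the treatment named in the labels. The values are the raw read counts per Ensembl gene that the authors deposited. The submitters' processing notes name STAR, featureCounts and GRCm38, and no source used here gives their versions, annotation or strand setting. Gene symbols, coordinates and exon lengths came from GENCODE M21, and the rows with no match held 0.0588% of counts. edgeR 4.0.16 in R 4.3.3 was used (TMM factors, filterByExpr with a count minimum of 10, robust quasi-likelihood fit with 1 term per group over all 15 libraries). Benjamini-Hochberg adjustment ran over 15152 genes with a threshold of 0.05. SE is the size of the log2 fold change divided by the square root of F. Levels are TMM-scaled CPM, or RPKM over the union of exons. The fit was tested on simulated counts. DESeq2 1.42.0, library totals, no filter, the compared groups alone, a replicate block, the other control and leaving out each library were the alternatives. DMSO as the control of siEzh2 was extended to the gene lists after seeing the data. No library was a copy of another in its group, since every pair within a group differed beyond counting error.

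The members and gene lists were chosen with earlier results of these data known. Beyond the members and Ezh2, the genes named are, per list and comparison, the 3 with the smallest p among those called and the first in the other direction where there is one, and per member the 3 most correlated genes over the libraries with a mean of at least 2 CPM. Genes named outside that rule, after their values were seen, are the chromosomal neighbours, Nr1h2, Nr1h3, Soat2 and the markers. Some genes that rule picks are not reported here.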

Additional observations from a re-analysis of the deposited data

How the results depend on the processing

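The calls of Abca4, Abcg1, Abca5 and Abca2 with DZNep and of Abca2 with siEzh2 held when each library was left out in turn. Fitting only the compared groups gave 721 genes higher and 410 lower with GSK126, and scr as its control gave 2460 and 2124, with a members' median of 0.28. The labels' replicate numbers were not taken as pairs, since the deviations of same-numbered libraries did not all correlate above 0.1 (-0.169, 0.0534 and -0.133 for siEzh2 and scr). The replicate block changed no member call: it gave 1085 genes higher and 852 lower with GSK126, 4758 and 4693 with DZNep, and 1989 and 1976 with siEzh2. Leaving out 1 library gave 731 to 1249 genes higher, 422 to 1241 lower and a members' median of 0.37 to 0.56 with GSK126.

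With DZNep, scr as the control gave 2 members lower (32.8% of all genes) and an Abca1 fold change of -0.27 (adjusted p = 0.123), and leaving out 1 library gave -0.013 (DZNep replicate 2) to 0.25. Abca3 was not called with library totals (adjusted p = 0.0655), no count filter (0.147), the compared groups alone (0.109) or DESeq2 (0.0523). With siEzh2, DMSO as the control gave 972 genes higher, 1176 lower and 0 members lower, by edgeR, with -0.066 for Abca3, 0.025 for Abca7 and 0.10 for Abcg1. Leaving out 1 library gave 0 to 1 members higher and 1 to 2 lower, where 10.5 to 11.8% of all genes were higher and 9.38 to 10.4% lower, with Abcg1 at -0.15 to 0.076 (scr replicate 3).

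In the difference between effects, leaving out 1 library put Abca7 at -0.031 (scr replicate 1) to 0.089, and it was also below 0 without DZNep replicate 3 or siEzh2 replicate 1. Between scr and DMSO, 2 members were higher with no count filter, the compared groups alone and DESeq2, where 7.26, 9.25 and 11.6% of all genes were higher. Leaving out 1 library gave 0 to 2 higher and 0 to 1 lower, where 8.89 to 11.7% of all genes were higher and 10.8 to 13.4% lower, with Abca5 at -0.085 to 0.094 (DMSO replicate 1), and at 0.029 with library totals. With the longest transcript, DMSO levels were 10.8 RPKM for Abca3, 0.0614 for Abca4, 3.22 for Abca5 and 0.159 for Abcg1. The cause of these shifts was not tested. Depth limits Abca4 and Abcg1, which rest on 14 to 135 counts a library.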
